A study of Caenorhabditis elegans with 4 samples.

Results

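The 9 genes described here make, package and take up the monoamine transmitters of Caenorhabditis elegans, namely dopamine, serotonin, tyramine and octopamine. They were chosen by name (cat-2, tph-1, cat-4, bas-1, tdc-1, tbh-1, cat-1, dat-1 and mod-5) for their known roles, with earlier results of these data known. They are 9 of the 41614 genes to which the deposited values could be joined. All 9 were found and all 9 were abundant enough to be tested. RNA of whole larvae of the first larval stage (L1) was sequenced in 4 libraries, 2 from dve-1 mutants carrying the uf171 allele and 2 from wild-type animals. The protein DVE-1 carries homeodomains and acts in the stress response by which cells answer misfolded proteins in mitochondria. Both genotypes were grown at 25 degrees Celsius on bacteria, and each collection held around 1200 synchronized larvae, per the labels' protocols. The labels say neither what the uf171 lesion does to the gene nor whether the replicates were grown separately. The p-values below therefore reflect the spread between these particular libraries, which may be technical.

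Monoamine synthesis in the worm runs through a short, shared set of enzymes. For dopamine and serotonin a specific hydroxylase acts first: CAT-2 (tyrosine hydroxylase) commits tyrosine to dopamine, and TPH-1 (tryptophan hydroxylase) commits tryptophan to serotonin. Both need tetrahydrobiopterin, whose synthesis starts with CAT-4 (GTP cyclohydrolase), and both products are then decarboxylated by BAS-1. Tyramine is made directly from tyrosine by the decarboxylase TDC-1, and TBH-1 hydroxylates tyramine to octopamine. CAT-1 loads all of these amines into synaptic vesicles, while DAT-1 and MOD-5 take released dopamine and serotonin back across the plasma membrane. The cells that use them are few: in young larvae dopamine is made in the CEP and ADE mechanosensory neurons, serotonin mainly in NSM and ADF, tyramine in RIM and octopamine in RIC. The dopaminergic PDE neurons and the serotonin of HSN appear only later in development. In whole-larva RNA a different number of such cells and a different amount of RNA per cell cannot be told apart.

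Expression is given as FPKM, the number of fragments relative to transcript length and to the mapped depth of a library, summed over the RefSeq accessions of a gene. Fold changes were fitted on log2(FPKM + 1), mutant over wild type, with limma over the 15202 genes averaging 1 FPKM or more, and a gene was called at an adjusted p under 0.05. Steps in the lowest FPKM values gave estimated depths of 17500000 and 16850000 fragments for the mutant libraries and 22950000 and 21800000 for the wild-type libraries. These depths are rough estimates from a loose fit, in which 33.2% to 41.8% of the low values lay within 0.1 of a whole fragment. Total counts are not part of the table used here. The targeted gene dve-1 was listed at 23.4 and 25.5 FPKM in the mutant and at 15.1 and 19.5 FPKM in wild type (log2 fold change 0.49, SE 0.17, limma adjusted p = 0.439), which does not check the genotype labels, since an allele need not alter the RNA level. The neuronal content of the samples was visible in both genotypes: all 9 pan-neuronal genes with a matched accession, of 10 listed, were above 0 in every library, and their summed level was 471 to 479 FPKM in the mutant and 411 to 434 FPKM in wild type (260 to 282 FPKM in the mutant and 241 to 277 FPKM in wild type without the most abundant of them, ric-4). Summed markers of body wall muscle lay at 854 to 857 FPKM in the mutant and 803 to 953 FPKM in wild type. Intestinal markers summed to 736 to 1220 FPKM in the mutant and 1297 to 1431 FPKM in wild type, but without act-5, which holds most of that sum, the genotypes overlapped at 163 to 243 FPKM in the mutant and 237 to 264 FPKM in wild type. Germline markers summed to 15.5 to 19.4 FPKM in the mutant and 22.2 to 25.4 FPKM in wild type, and overlapped without glh-4, at 14.8 to 18.7 FPKM in the mutant and 17.2 to 19.9 FPKM in wild type. The sums of epidermal markers (88.3 to 101 FPKM in the mutant and 111 to 148 FPKM in wild type) and of glial markers (36.7 to 55.2 FPKM in the mutant and 66.6 to 86.2 FPKM in wild type) stayed lower in both mutant libraries with any 1 gene left out, for glia only narrowly without lit-1 (9.68 to 11.29 FPKM in the mutant and 11.34 to 37.5 FPKM in wild type). The top of the wild-type glial range came with mir-228, listed at 26.3 FPKM in wild-type replicate 2 and at 0 in the other libraries. Without it the wild-type sums were 59.9 to 66.6 FPKM. Single markers went the other way, with both mutant values above both wild-type values. They were elt-3 and che-14 of the epidermis, pgl-3 of the germline, and kcc-3 and delm-2 of glia (delm-2 too low to be tested). No marker of these tissues was called by limma. The part of cell composition in the values below was not tested. Yolk protein genes, which adults express, summed to 0.161 to 1.43 FPKM in the mutant and 0.0779 to 0.828 FPKM in wild type. The libraries also differed within each genotype in 8 genes of the cuticle and moult, which cycle within a larval stage: their summed level was 44.1 and 249 FPKM in the mutant libraries and 543 and 27.3 FPKM in the wild-type libraries. All 8 were higher in mutant replicate 2 than in mutant replicate 1, and all 8 were higher in wild-type replicate 1 than in wild-type replicate 2.

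No monoamine gene passed the limma threshold, and none was listed at 0 in any library. The serotonin hydroxylase gene tph-1 had the widest gap between genotypes, a 2.24-fold ratio of means. The reuptake transporter genes dat-1 and mod-5 each had a ratio of 1.47, with no overlap between genotypes. The vesicular transporter gene cat-1, which serves all of the amines, did not overlap either, at a smaller ratio of 1.16. The enzyme genes that dopamine and serotonin share, cat-4 and bas-1, overlapped between genotypes. So did the tyramine and octopamine enzyme genes tdc-1 and tbh-1 and the dopamine hydroxylase gene cat-2. By limma 0 of 9 were called, against 1.66% of all genes tested, and 2 of 9, tph-1 and mod-5, both higher in the mutant, had an unadjusted p under 0.05, against 11.9% of all genes tested (6.28% higher in the mutant). In 4 of the 9 the mutant values were both above the wild-type values, against 28.1% of all genes tested and 32.9% of the 8378 protein-coding genes whose mean was no higher than that of the most abundant of the 9 (28.6 FPKM). Both lay below in 0 of 9, against 15.9%. The median log2 fold change of the 9 was 0.15, and that of all genes tested was 0.09. On the largest accession of each gene only, tbh-1 fell below the filter and was not tested. There cat-2 and tdc-1 joined, and 6 of the genes still tested had both mutant values above, against 27.2% of all genes tested that way. These counts come from few genes, depend on how accessions are handled, and are not read as a property of the 9 as a set.

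**Figure D1:**
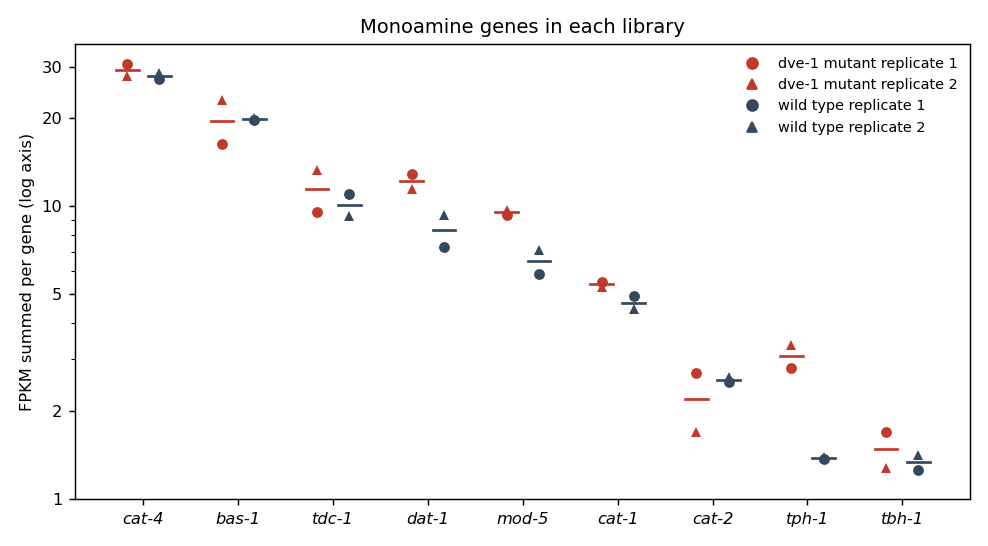
FPKM summed per gene (log axis) of the 9 monoamine genes in each library, ordered by mean, with dve-1 mutant libraries in red and wild-type libraries in dark blue. Circles and triangles are replicates 1 and 2, and bars are group means of 2 libraries. The mutant values of tph-1 (2.81 and 3.36) stand clear of the wild-type values (1.36 and 1.40), and those of bas-1 (16.3 and 23) lie on either side of wild type.

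The 9 genes covered a wide range of levels per length. The gene of the cofactor enzyme, cat-4, was the most abundant, at 27.3 to 30.6 FPKM over the 4 libraries. It was followed by the decarboxylase gene bas-1 at 16.3 to 23 FPKM. Neither range overlapped that of the next gene down. The genes tdc-1 (9.25 to 13.3 FPKM), dat-1 (7.25 to 12.9 FPKM) and mod-5 (5.86 to 9.71 FPKM) came next, and neighbours among these overlapped. The vesicular transporter gene cat-1 stood alone at 4.45 to 5.53 FPKM. At the bottom were cat-2 (1.70 to 2.70 FPKM), tph-1 (1.36 to 3.36 FPKM) and tbh-1 (1.26 to 1.70 FPKM), again with overlapping neighbours. The genes of the enzymes specific to dopamine, serotonin and octopamine were the least abundant of the 9, and those of the enzymes shared by several amines the most abundant. The part of cells other than monoaminergic neurons in these whole-larva levels was not tested.

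Among the hydroxylases, tph-1 (chromosome II, 7549335 to 7551985, WBcel235) stood at 2.81 and 3.36 FPKM in mutant larvae and at 1.36 and 1.40 FPKM in wild-type larvae. Each of the 4 pairings of a mutant with a wild-type library gave a ratio of 2.01 to 2.47. The mutant libraries differed by a factor of 1.20 and the wild-type libraries by a factor of 1.02. The fitted log2 fold change was 0.78 (SE 0.24, 95% interval 0.05 to 1.5) and did not pass (limma adjusted p = 0.398), ranking 1575 by p among all genes tested. At the estimated depths the gene rested on about 79 and 94 fragments in the mutant and 52 and 50 in wild type. Of its exonic bases 9.31% overlap other annotated genes, among them the opposite-strand gene ZK1290.10 and noncoding RNAs, and the strand setting of the counting is not stated in the labels.

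The dopamine hydroxylase gene cat-2 (chromosome II, 257819 to 261074) was not set apart in 1 direction. It was listed at 2.70 and 1.70 FPKM in the mutant and at 2.51 and 2.6 FPKM in wild type. The first mutant library lay above both wild-type libraries and the second below both (fitted log2 fold change -0.17, SE 0.28, adjusted p by limma = 0.815). In the mutant tph-1 stood above cat-2 in both libraries and in wild type below it in both: the ratio of tph-1 to cat-2 within a library was 1.04 and 1.98 in the mutant and 0.543 and 0.537 in wild type. A ratio within a library does not depend on how libraries are scaled. It rests on cat-2 as well as on tph-1 and was not tested.

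The cofactor gene cat-4 (chromosome V, 10564880 to 10566439) had close values in both genotypes. Its level was 30.6 and 27.8 FPKM in the mutant and at 27.3 and 28.6 FPKM in wild type. The log2 fold change was 0.06 (SE 0.11), and its 95% interval, -0.27 to 0.39, was the narrowest among the 9. Its direction turned to -0.04 under median-ratio scaling and to -0.01 under quantile normalization, so no direction is given.

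The decarboxylase gene bas-1 (chromosome III, 5612274 to 5614661) varied more within the mutant than between genotypes. Its level was 16.3 and 23 FPKM in the mutant and 19.6 and 19.97 FPKM in wild type (fitted log2 fold change -0.03, SE 0.21, adjusted p by limma = 0.97). The mutant libraries differed by a factor of 1.41 and lay on either side of wild type, where the factor was 1.02. The tyrosine decarboxylase gene tdc-1 (chromosome II, 8270597 to 8273615) also differed between the mutant libraries, at 9.55 and 13.3 FPKM, against 11 and 9.25 FPKM in wild type (fitted log2 fold change 0.15, SE 0.22, adjusted p by limma = 0.792). Both of its higher values fell in the libraries with the higher cuticle and moult levels, the second mutant and the first wild-type library. No other member had this order. It was reversed in both genotypes for cat-2, cat-4, dat-1 and tbh-1. For bas-1, mod-5 and tph-1 it was reversed in wild type only, and for cat-1 in the mutant only. The part of larval timing in these values was not tested.

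The octopamine enzyme gene tbh-1 (chromosome X, 15500256 to 15504895) was the least abundant of the 9, at 1.70 and 1.28 FPKM in the mutant and 1.26 and 1.41 FPKM in wild type. The genotypes overlapped, and the interval of the log2 fold change was wide, -0.83 to 1.01 (estimate 0.09, limma adjusted p = 0.934). Only about 55 and 41 fragments in the mutant and 55 and 57 in wild type lay behind these values at the estimated depths. Of its exonic bases 18.2% overlap genes on the opposite strand, mainly H13N06.7. The ratio of tdc-1 to tbh-1 within a library was 5.63 and 10.5 in the mutant and 8.74 and 6.57 in wild type. The genotypes overlapped in this ratio too. As a ratio of RNA levels it does not measure the step from tyramine to octopamine.

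Both plasma membrane transporter genes lay higher in the mutant libraries. The dopamine transporter gene dat-1 (chromosome III, 9242975 to 9246802) was listed at 12.9 and 11.5 FPKM in the mutant and at 7.25 and 9.37 FPKM in wild type. The nearest values of the genotypes, the second libraries of each, differed by a factor of 1.22, which is less than the factor of 1.29 between the wild-type libraries. Its log2 fold change was 0.51 (SE 0.18, 95% interval -0.02 to 1.04, limma adjusted p = 0.438). The serotonin transporter gene mod-5 (chromosome I, 3034716 to 3047794) was listed at 9.33 and 9.71 FPKM in the mutant and at 5.86 and 7.10 FPKM in wild type. The pairings of a mutant and a wild-type library gave ratios of 1.31 to 1.66, against factors of 1.04 within the mutant and 1.21 within wild type (log2 fold change 0.50, SE 0.15, 95% interval 0.05 to 0.95, limma adjusted p = 0.391).

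The ratio of dat-1 to mod-5 within a library was 1.38 and 1.18 in the mutant and 1.24 and 1.32 in wild type, overlapping between genotypes. The ratio of mod-5 to tph-1 did not overlap, at 3.32 and 2.89 in the mutant and 4.30 and 5.08 in wild type, since tph-1 differed more than mod-5. These ratios were chosen after the values were seen and were not tested. The vesicular transporter gene cat-1 (chromosome X, 5705690 to 5710625), whose product serves every monoamine neuron, was listed at 5.53 and 5.30 FPKM in the mutant and at 4.92 and 4.45 FPKM in wild type. The genotypes did not overlap, but the nearest values differed by a factor of only 1.08 and the log2 fold change was 0.18 (SE 0.15, limma adjusted p = 0.627).

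**Figure D2:**
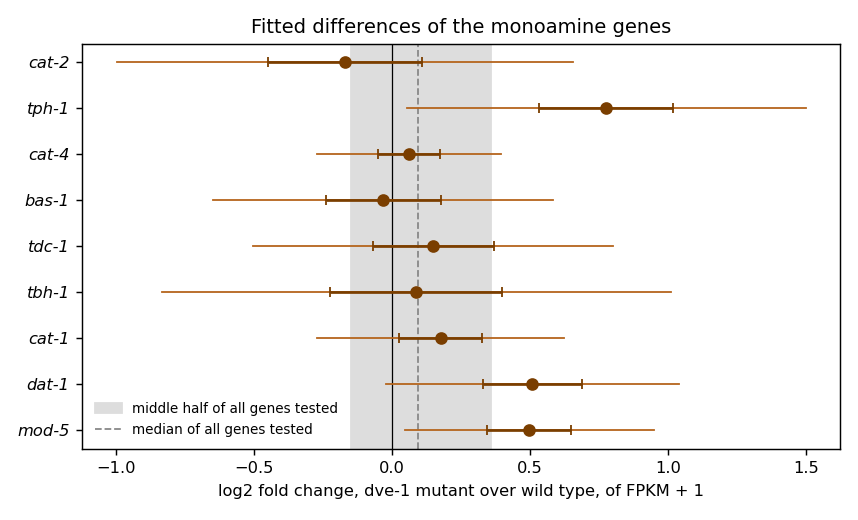
Fitted log2 fold changes of the 9 genes, dve-1 mutant over wild type, with SE (thick capped bars) and 95% intervals (thin bars) from limma on 2 libraries of each genotype. The grey band spans the middle of all 15202 genes tested, from the lower quartile (-0.15) to the upper quartile (0.36), and the dashed line marks their median (0.09). The estimates of tph-1 (0.78), dat-1 (0.51) and mod-5 (0.50) lie above the band.

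Set against pan-neuronal genes, the higher level of tph-1, dat-1 and mod-5 in the mutant was smaller in ratio and had the same direction. The summed level of the pan-neuronal genes was itself higher in both mutant libraries than in either wild-type library, which rests on ric-4: without it the sums overlapped. Of the 9 pan-neuronal genes, 3 had both mutant values above both wild-type values and 1, unc-64, had both below. Relative to that sum, tph-1 made up 0.586% and 0.713% in the mutant and 0.332% and 0.322% in wild type, a ratio of means of 1.99. The share of dat-1 was 2.69% and 2.43% in the mutant and 1.76% and 2.16% in wild type. That of mod-5 was 1.95% and 2.06% in the mutant and 1.43% and 1.64% in wild type. Both had a ratio of means of 1.31, and in all 3 genes the genotypes still did not overlap, also with any 1 pan-neuronal gene left out of the sum. Without ric-4 the ratios of means were 2.14 for tph-1, 1.40 for dat-1 and 1.41 for mod-5. For cat-1 the shares overlapped, at 1.15% and 1.13% in the mutant and 1.20% and 1.03% in wild type. For cat-4 and cat-2 both mutant shares lay below both wild-type shares, at 6.38% and 5.91% against 6.63% and 6.59% for cat-4, and at 0.564% and 0.360% against 0.611% and 0.599% for cat-2. This separation, too, rests on ric-4. Without it the shares overlapped, at 10.9% and 10.7% in the mutant and 11.3% and 10.3% in wild type for cat-4 and at 0.960% and 0.652% in the mutant and 1.04% and 0.940% in wild type for cat-2. No single pan-neuronal gene passed the limma threshold: ric-4, which encodes the SNAP-25 protein of vesicle fusion, stood at 197 and 211 FPKM in the mutant and 171 and 157 FPKM in wild type, while the syntaxin gene unc-64 stood at 60.1 and 54.8 FPKM in the mutant and 63.8 and 67.1 FPKM in wild type.

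**Figure D3:**
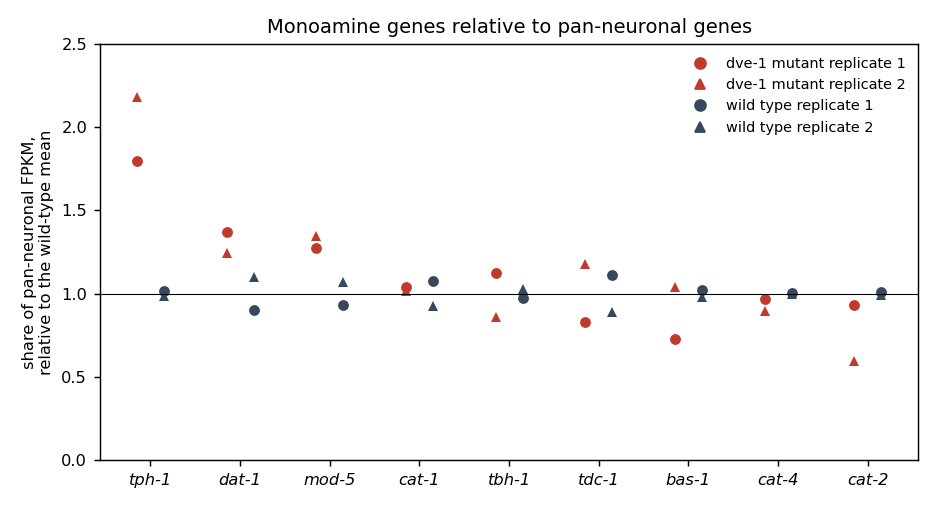
Each gene's share of the summed FPKM of 9 pan-neuronal genes, divided by the wild-type mean of that share, with dve-1 mutant libraries in red to the left of wild-type libraries in dark blue. Circles and triangles are replicates 1 and 2, and the line marks the wild-type mean. The mutant values of tph-1, dat-1 and mod-5 lie above the wild-type values. Those of cat-4 and cat-2 lie below, which holds only with ric-4 in the sum.

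Below the level of the gene, the deposited values are per RefSeq accession, and for 4 of the 9 genes more than 1 accession carried values. The accessions of cat-2 did not carry the same share in the genotypes. Accession NM_001267080 was listed at 0 in both mutant libraries and at 2.51 and 1.53 FPKM in wild type. Accession NM_001306554 was listed at 2.70 and 1.70 FPKM in the mutant and at 0 and 1.07 FPKM in wild type. The sum over both, used above, hides this. The annotated transcripts of cat-2 share 62.9% of their exonic bases, and a fragment from the shared part fits each of them. The wild-type libraries, too, divided the gene differently: the first placed 100% and the second 58.9% of it on NM_001267080. The difference between genotypes in this division was not tested.

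In bas-1 the second accession was at 0 and 4.65 FPKM in the mutant and at 0 and 2.88 FPKM in wild type. The main accession alone stood at 16.3 and 18.4 FPKM in the mutant and 19.6 and 17.1 FPKM in wild type. The mutant libraries thus differed by more in the second accession than in the main one, while the main accession held 79.8% of the gene in mutant replicate 2. The annotated transcripts of bas-1 share 98.2% of their exonic bases, so this division rests on few bases and is not read as a difference between isoforms. In tdc-1 the second accession was listed at 0 and 2.74 FPKM in the mutant and at 3.03 and 1.23 FPKM in wild type, while the main accession stood at 9.55 and 10.6 FPKM in the mutant and 7.97 and 8.01 FPKM in wild type. On the main accession alone, the mutant values of tdc-1 did not overlap the lower wild-type values. The 3 accessions of tbh-1 were divided differently in every library, with NM_001313436 holding 0% and 100% of the gene in the mutant libraries and 0% and 55.6% in the wild-type libraries. The annotated transcripts share 74.9% of their exonic bases in tdc-1 and 84.9% in tbh-1, which limits these divisions as well. Exact values of 0 in such a table can be failed estimates and are given only as listed.

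**Figure D4:**
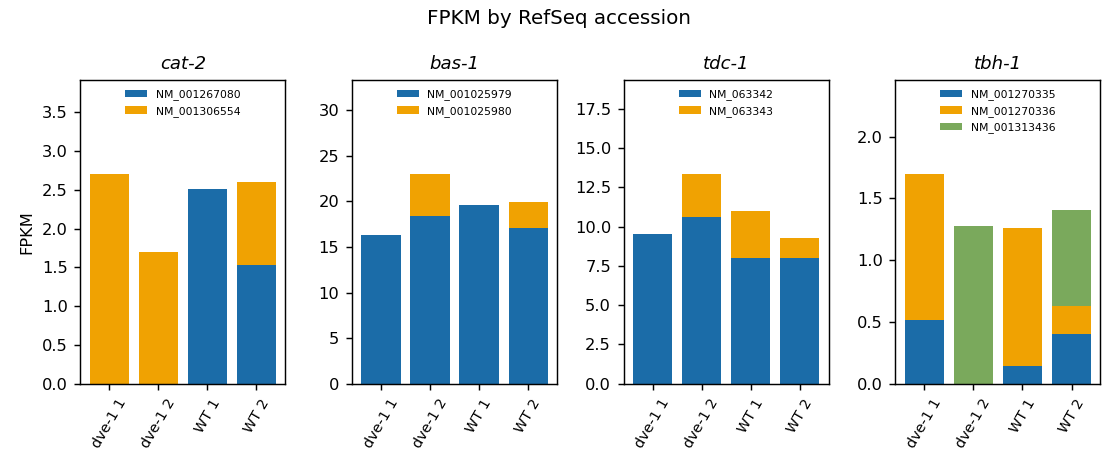
FPKM per RefSeq accession, stacked, for the 4 monoamine genes with values on more than 1 accession, in the 2 dve-1 mutant libraries (left) and the 2 wild-type (WT) libraries (right) of each panel. In cat-2 both mutant bars are a single colour (NM_001306554), the first wild-type bar is the other colour and the second wild-type bar holds both.

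The remaining monoamine pathway was covered by 9 lists with 67 genes, of which 60 had a matched accession and 50 were tested. By limma 0 of the 50 were called in either direction, against 0.303% of all genes tested called higher and 1.36% called lower. In these lists 6 of the 50 had an unadjusted p under 0.05, against 11.9% of all genes tested, which is about the same share. The mutant values were both above the wild-type values in 17 of the 50, against 28.1% of all genes tested and 31.2% of the protein-coding genes tested. Both lay below in 6, against 15.9% of all genes tested. For the lists below, too, 31.2% is the share over protein-coding genes.

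The genes most like dat-1 and mod-5 by family, the other SLC6 transporters (sodium-coupled carriers of transmitters and related solutes), gave no call. Of 12 listed, 9 were matched and 4 were abundant enough to be tested, of which 3 had both mutant values above both wild-type values (28.1% of all genes tested). The GABA transporter gene snf-11 stood at 51.0 and 51.6 FPKM in the mutant and at 30.9 and 36.7 FPKM in wild type (fitted log2 fold change 0.59, SE 0.13, adjusted p by limma = 0.286). The betaine transporter gene snf-3 stood at 46.2 and 46.7 FPKM in the mutant and at 30.5 and 31.2 FPKM in wild type (fitted log2 fold change 0.58, SE 0.10, adjusted p by limma = 0.168). Taking dat-1 and mod-5 with them, the mutant values were both above the wild-type values in 5 of the 6 SLC6 genes tested, against 28.1% of all genes tested, and 4 had an unadjusted p under 0.05, against 11.9%. The exception, snf-12, stood at 9.45 and 6.08 FPKM in the mutant and 3.96 and 6.09 FPKM in wild type. The 6 were put together after their values were seen, and the 5 matched but untested genes (snf-2, snf-5, snf-7, snf-9 and snf-10) were low in every library, with a highest value of 0.1765 FPKM (snf-10 in mutant replicate 2), so the count describes only the abundant members.

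No receptor gene for the amines was called. Over all genes tested 28.1% had both mutant values above both wild-type values, and the median log2 fold change was 0.09. Of 6 dopamine receptor genes tested this held for 4 (median 0.35). The most abundant, the D2-like genes dop-5 and dop-2, stood at 20.8 and 18.2 FPKM and at 19.5 and 18.9 FPKM in the mutant, against 16.5 and 19.6 FPKM and 17.1 and 15.7 FPKM in wild type. Of 6 serotonin receptor genes 3 had both values above (median 0.19). Among them lgc-50, which encodes a serotonin-gated channel, stood at 19.8 and 22.8 FPKM in the mutant and at 14 and 15.6 FPKM in wild type (log2 fold change 0.50, limma adjusted p = 0.362). The more abundant receptor gene ser-4 stood at 28.7 and 24.6 FPKM in the mutant and 24.5 and 28.4 FPKM in wild type. Of 7 tyramine and octopamine receptor genes 1 had both values above (median 0.10). The tyramine-gated chloride channel gene lgc-55 stood at 21.4 and 18.6 FPKM in the mutant and 18.2 and 20.5 FPKM in wild type, and the octopamine receptor gene ser-3 at 16.8 and 14.1 FPKM in the mutant and 13.5 and 15.8 FPKM in wild type.

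Enzymes around the pathway gave 0 calls. The biopterin regeneration genes qdpr-1 and pcbd-1 stood at 171 and 194 FPKM and at 85.2 and 77.9 FPKM in the mutant, against 188 and 201 FPKM and 79.3 and 91.6 FPKM in wild type. The median log2 fold change of the 4 tested cofactor genes was 0.002. Of the related hydroxylases and decarboxylases only pah-1 was tested. It encodes phenylalanine hydroxylase, which also uses biopterin, and stood at 92.4 and 67.8 FPKM in the mutant and 60.3 and 66.4 FPKM in wild type. The neighbour and close relative of bas-1, basl-1, was listed at 0.467 and 0.208 FPKM in the mutant and at 0.0917 and 0.231 FPKM in wild type. Of 5 breakdown genes tested 1 had both values above: amx-1, a monoamine oxidase gene, stood at 7.90 and 8.22 FPKM in the mutant and 5.82 and 7.14 FPKM in wild type. The catechol methyltransferase family gene comt-3 stood at 50.9 and 60.1 FPKM in the mutant and 56.9 and 36.8 FPKM in wild type.

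Transcription factors known to specify monoaminergic neurons gave no call either. Of 13 tested, 6 had both mutant values below both wild-type values, against 15.9% of all genes tested, and 0 had both above, against 28.1%. Their median log2 fold change was -0.12, and that of all genes tested was 0.09. The 6 with both below were ast-1, unc-62, vab-3, egl-46, hlh-3 and egl-18. The log2 fold changes of these 6 ran from -0.07 for ast-1 to -0.50 for egl-18. The list as a whole was not tested. The most abundant, the homeobox gene ceh-20, stood at 65.2 and 61.2 FPKM in the mutant and 61.7 and 64 FPKM in wild type, and the zinc finger gene sem-4 at 52.0 and 48.3 FPKM in the mutant and 45.5 and 65.5 FPKM in wild type. For the dopaminergic selector gene ast-1 the values were 21.9 and 20.4 FPKM in the mutant and 22.5 and 22.0 FPKM in wild type. For the serotonergic selector gene unc-86 they were 32.5 and 25.2 FPKM in the mutant and 32.3 and 37.7 FPKM in wild type. Many of these factors act in other tissues and neurons as well, and their levels in whole larvae are not those in monoaminergic cells.

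The genes of other transmitters gave a comparison for tph-1, dat-1 and mod-5. All 4 tested genes of acetylcholine, GABA and glutamate had both mutant values above both wild-type values, against 28.1% of all genes tested (median log2 fold change 0.32, against 0.09 over all genes tested). The vesicular glutamate transporter gene eat-4 stood at 20.6 and 22.0 FPKM in the mutant and 14.9 and 16.8 FPKM in wild type, and the GABA synthesis gene unc-25 at 59.5 and 61.2 FPKM in the mutant and 51.0 and 51.6 FPKM in wild type. None passed limma (adjusted p = 0.391 for eat-4 and 0.489 for unc-25). The fitted log2 fold changes were 0.63 for unc-47, 0.41 for eat-4, 0.23 for unc-25 and 0.13 for cha-1. The listed gene unc-17 had no matched accession. The difference between these genes and the monoamine genes was not tested.

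**Figure D5:**
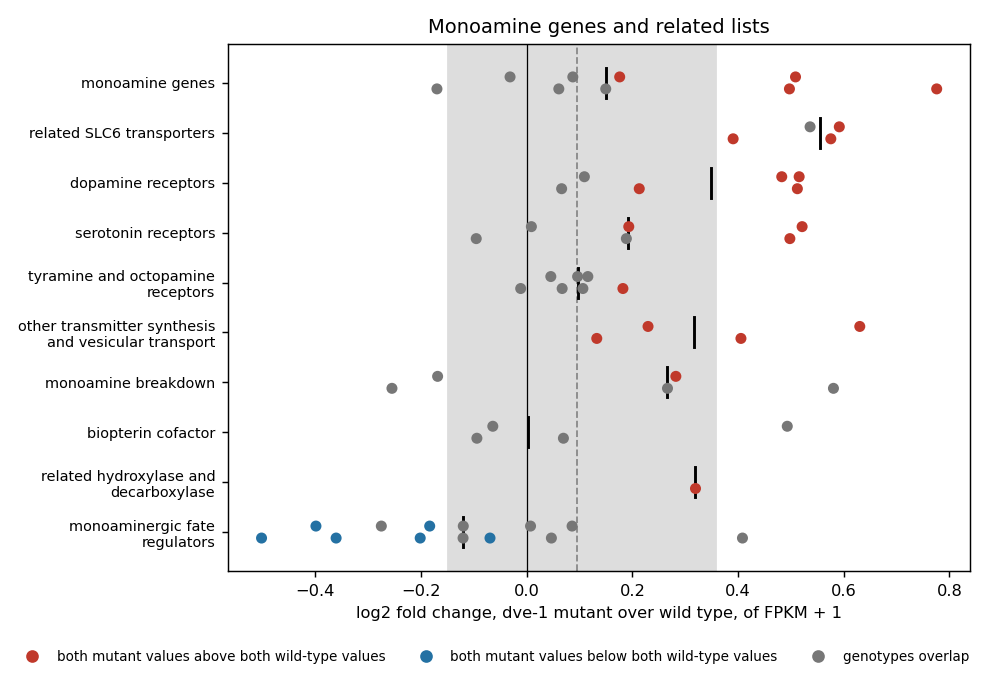
Log2 fold changes, dve-1 mutant over wild type, of the monoamine genes (top) and of the tested genes of 9 related lists, with list medians as black bars. Red points have both mutant values above both wild-type values, blue points have both below, and grey points overlap. The grey band and dashed line give the quartiles and median of all genes tested. The SLC6 transporters (median 0.56) lie to the right and the fate regulators (median -0.12) to the left.

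The 9 genes did not share a single profile over the libraries. After centring each gene on its own mean, their average profile was 0.11 and 0.12 in the mutant libraries and -0.14 and -0.09 in the wild-type libraries on the log2 scale. The Euclidean distance of a member from it ranged from 0.14 for cat-1 to 0.56 for tph-1. Among 9581 other protein-coding genes averaging 5 FPKM or more, lin-28 (distance 0.011), H27A22.1 (0.013) and C09D4.4 (0.021) were closest to that average. With 4 libraries such closeness is easily reached, and it is given as a description only.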

How the data were processed

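RNA of whole L1 larvae was measured in 4 libraries, grouped by the sample titles. The authors deposited FPKM per RefSeq accession and library; the tools named by the submitters' processing notes are TopHat2 and Cufflinks, on build ce11, with versions, strand and handling of multi-mapped reads not given in the sources used here. Accessions were matched without version to the RefSeq gene table of WBcel235 (the same assembly), and FPKM were summed per gene: 47645 of 52491 accessions matched, giving 41614 genes. The unmatched 4846 held 20.9% to 21.7% of summed FPKM. Exon overlaps and transcript lengths came from Ensembl release 115. Fragment depths were fitted to whole-fragment steps among transcripts under 0.3 FPKM, of which 33.2% to 41.8% then lay within 0.1 of a whole fragment.

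The test was limma 3.58.1 (R 4.3.3) on log2(FPKM + 1) with a variance trend over intensity. This scale understates fold changes of low genes. Genes averaging 1 FPKM or more entered, with Benjamini-Hochberg adjustment over all genes tested. The step was checked on simulated data. Other scalings, pseudocounts, filters, variance models, a replicate block, each library left out, protein-coding genes only and the largest accession only were alternatives. Leaving each marker gene out of its list's sum was added after seeing the data. With no counts given, no count test was run.

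All 9 members were named. From each related list the rule took up to 3 called genes each way or otherwise the 2 most abundant, and the 3 genes nearest the average profile. Outside the rule, the lower snf genes, ast-1, unc-86 and the single marker genes were picked with their values in view. So were unc-47, cha-1, act-1, adt-2 and the other fate regulators with both mutant values below. The members and lists were chosen with earlier results of these data known.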

Additional observations from a re-analysis of the deposited data

How the results depend on the processing

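Under the other settings tried 0 of the 9 monoamine genes and 0 of the genes in related lists were called. The genes tph-1 (log2 fold change 0.68 to 1.15), dat-1 (0.34 to 0.67), mod-5 (0.38 to 0.62) and cat-1 (0.09 to 0.24) kept their direction in every alternative in which they were tested, with limma adjusted p from 0.23 to 0.836. The other 5 turned in some, namely cat-4 to -0.0391 under median-ratio scaling and -0.0134 under quantile normalization, and cat-2 to 1.14 on the largest accession only. With 1 library left out cat-4 ranged from -0.0043 to 0.126, cat-2 from -0.399 to 0.0586, bas-1 from -0.269 to 0.206, tbh-1 from -0.0356 to 0.21 and tdc-1 from -0.0719 to 0.371, and in each the extremes came from leaving out 1 or the other mutant library. The cause was not tested beyond the accession values given above. The median of the 9 ranged from 0.116 to 0.236 with 1 library left out. It was 0.0554 under median-ratio scaling, where the median of all genes moved to 0.00517. On the largest accession only it was 0.398, without tbh-1, which was not tested there. The number of the 9 with both mutant values above both wild-type values was 4 under the other settings with 4 libraries, except for the largest accession only and the stricter filter of 5 FPKM. There it was 6 and 3, and fewer of the 9 are tested in both.

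Over all genes 46 were called higher and 206 lower. Some of these calls lay near 0 in a single genotype. For act-1, mutant libraries had 0.131 and 0.177 FPKM against wild-type values of 1982 and 2126 FPKM. The reverse held for adt-2, with mutant values of 14.2 and 17.6 FPKM against 0 in both wild-type libraries. Whether such calls come from how fragments were assigned to accessions was not tested. The 1.66% of all genes called includes them. Higher calls numbered 83 with a pseudocount of 0.01, 78 without the filter, 83 without the trend and 17 among protein-coding genes only; at a mean of at least 5 FPKM they were 15, and lower calls 90. With 1 library left out, 89 to 425 were higher and 37 to 678 lower. The replicate block left 0 higher and 0 lower, and 0 monoamine genes. The replicate numbers are not stated to pair libraries, and deviations of same-numbered libraries correlated at -0.0562 over genes. Low levels limit tph-1, cat-2 and tbh-1 most.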
